A study of Mus musculus with 3 samples.

Results

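A set of 10 Kruppel-like factor (KLF) genes, called the members below, was followed through 3 RNA libraries of mouse macrophages: Klf2, Klf3, Klf4, Klf6, Klf7, Klf9, Klf10, Klf11, Klf13 and Klf16. They are 10 of 55536 annotated genes in the libraries and 10 of 17 KLF genes found there. They were selected by symbol with their levels known, and Klf10 because its 2 deposited quantifications differed, so levels and that difference are given as descriptions with no test. The libraries hold polyadenylated RNA of bone-marrow-derived macrophages of the C57BL/6J strain, primary phagocytes grown from marrow precursors. All 3 had 100 ng/ml lipid A (the membrane anchor of bacterial lipopolysaccharide, sensed by Toll-like receptor 4) for 12 h, a washout of 12 h and 100 ng/ml lipid A again for 480 min, from 1 µg of RNA. The treatment field names lipoprotein A, and the written description is followed here. They form 1 group (biological replicates 1, 2 and 3), so no effect of lipid A can be given. One donor record serves all 3, and whether each replicate came from its own animal is not stated, so p-values measure only the spread between these libraries, which may be technical. Age and sex were not recorded.

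KLFs are transcription factors that bind GC-rich and CACCC-type promoter elements through zinc fingers at the carboxyl end, and their amino ends set what they recruit. KLF3, KLF8 and KLF12 bind the corepressor CtBP. KLF2, KLF4, KLF6 and KLF7 act mainly as activators and work with acetyltransferases, and KLF9, KLF10, KLF11, KLF13, KLF14 and KLF16 bind the SIN3 corepressor. In macrophages KLF2 is known for restraining inflammatory activation, KLF4 for monocyte differentiation and alternative polarisation, and KLF6 for promoting inflammatory gene expression.

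Counts below belong to whole transcripts, and coverage of single exons was not analysed. A pair of exons, from coding transcripts described below, is given 5′ to 3′ from the GENCODE M21 transcripts on mm10. The first is exon 2 of Klf10-204 (ENSMUST00000228416.1, 151 bases, chr15:38300267-38300417, minus strand), the transcript on which the quantifications of Klf10 parted, with its run of 33 A (bases 27 to 59 of the exon) in capitals. The second is exon 1 of Klf3-206 (ENSMUST00000198946.1, 74 bases, chr5:64826809-64826882, plus strand), the transcript that led Klf3 in replicate 2, in lower case throughout.
Klf10-204 exon 2: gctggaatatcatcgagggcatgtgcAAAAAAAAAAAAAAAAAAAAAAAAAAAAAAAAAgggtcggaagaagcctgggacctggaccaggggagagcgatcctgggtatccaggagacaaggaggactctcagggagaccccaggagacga
Klf3-206 exon 1: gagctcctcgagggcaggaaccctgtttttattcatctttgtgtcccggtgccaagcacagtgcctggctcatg
No other annotated Klf10 transcript overlaps exon 2 of Klf10-204, and the longest run of A in any of the other Klf10 transcripts is 7 bases. Exon 1 of Klf3-206 is overlapped by 1 other Klf3 transcript, Klf3-207.

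The libraries held 24596382, 54016971 and 43127749 expected counts (estimated read counts, shared among transcripts by a model) in replicates 1, 2 and 3. Replicate 2 stood apart in 2 ways that touch the members. Mitochondrially encoded genes took 7.13% of its counts against 1.14% and 1.25% in replicates 1 and 3. Among 8774 protein-coding genes with several transcripts and at least 1 TPM in every library, the transcript with the highest TPM in replicate 2 differed from the one the other libraries shared in 21% of genes (1845), against 3.39% for replicate 1 and 2.95% for replicate 3. In replicate 2 the odd transcript was the shorter one in 83.0% of those genes. TPM, the level used here, corrects a count for transcript length and library size. Macrophage markers were present, among them Lyz2 at 9400 ± 1767 TPM and Adgre1 at 1806 ± 496 TPM (mean ± SD, n = 3, as throughout). Of 41 markers of 8 other cell types, 6 reached 1 TPM in every library.

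By TPM of the first quantification, which was made from alignments to the transcriptome, Klf6 led the members and Klf9 and Klf11 closed the order. At least 1 TPM in every library was reached by 7 of the 10 members, by 1 of 7 other KLF genes and by 4 of 9 SP genes, the sister family. That is 12 of 26 family genes, beside 42.9% of 22028 protein-coding genes. The median member lay at 4.93 TPM, and that of the 9439 protein-coding genes that reached 1 TPM in every library was 18.1 TPM. Apart from Klf6 and Klf3, every member had a mean below 18.1 TPM, though Klf13 lay above it in replicates 1 and 3 (18.7 and 20.95 TPM).

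**Figure D1:**
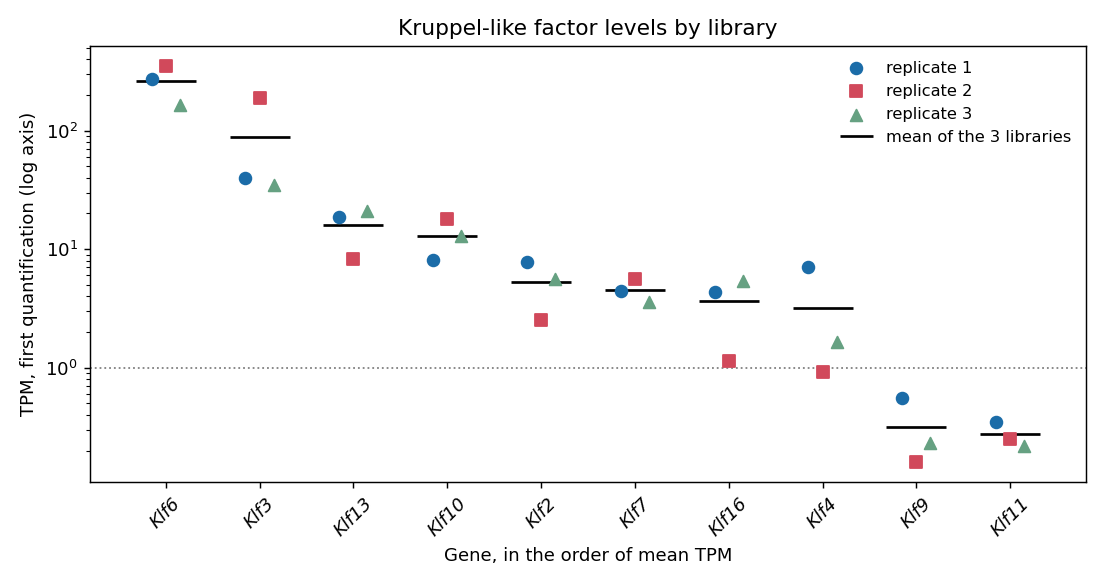
TPM of the 10 members in each of the 3 libraries (points, log axis) with the mean of the libraries (bars), first quantification; the dotted line marks 1 TPM. Klf6 lies above 160 TPM in each library and Klf9 and Klf11 below 1 TPM in each, and Klf3 is second in each, while the members between Klf3 and Klf9 change places from library to library.

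The activators are described first. Klf6 (ENSMUSG00000000078.7, chromosome 13, 5861482 to 5870394, plus strand) stood at 271, 352 and 166 TPM in replicates 1, 2 and 3, a mean of 263 ± 93.6 TPM. It ranked 534th by mean among protein-coding genes. Klf6-201, its full-length transcript, took 97.2%, 99.8% and 97.5% of it by the authors' deposited isoform percent.

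Klf2 (ENSMUSG00000055148.7, chromosome 8, 72319033 to 72321656, plus strand) had 7.76, 2.51 and 5.64 TPM, a mean of 5.30 ± 2.64 TPM. Klf4 (ENSMUSG00000003032.8, chromosome 4, 55527143 to 55532466, minus strand) had 7.0, 0.92 and 1.66 TPM, and its mean of 3.19 ± 3.32 TPM fell to 1.29 TPM without replicate 1. Both were highest in replicate 1 and lowest in replicate 2, and Klf4 had the widest ratio of highest to lowest library of the members, 7.61. Klf7 (ENSMUSG00000025959.13, chromosome 1, 64029447 to 64122282, minus strand) had one of the narrowest by TPM, 1.56, with 4.42, 5.63 and 3.61 TPM (mean 4.55 ± 1.02 TPM). In TMM-scaled CPM, a scale explained below, its ratio was 2.20, wider than those of Klf10 (1.58), Klf11 (1.73) and Klf13 (1.84).

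KLF2 is also known as an endothelial factor, so the endothelial markers are set beside it. Their summed level was 37.8, 16.2 and 27.2 TPM in replicates 1, 2 and 3, the same order of libraries as Klf2, and 2 of 6 reached 1 TPM in every library (Kdr and Pecam1). The vascular growth factor receptor Kdr made up most of the sum in replicates 1 and 3 with 35.2 and 23.8 TPM, against 7.90 TPM in replicate 2. Cdh5, which encodes VE-cadherin, went the other way with 0.36, 5.82 and 0.45 TPM. Tek and Tie1 were at 0 counts in every library, and Emcn had at most 0.12 TPM. The part of such cells in the spread of Klf2 was not tested. In bulk RNA, fewer cells of a type and less RNA per cell cannot be told apart.

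Klf3 (ENSMUSG00000029178.14, chromosome 5, 64803388 to 64832901, plus strand), the CtBP-binding repressor, was the second most abundant member with 39.7, 190 and 35.0 TPM. Replicate 2 was 5.43 times replicate 3, and the mean of 88.2 ± 88.1 TPM fell to 37.3 TPM without it. By TPM, most of the excess lay on short transcripts. Klf3-201, the 5221-base transcript with 3743 bases after the stop codon, had 34.7, 35.9 and 28.7 TPM. Klf3-206, an 809-base transcript with 392 bases after the stop codon whose first exon is printed above, had 0.74, 120 and 2.28 TPM. Klf3-202, of 1562 bases with 324 after the stop codon, had 0.54, 31.4 and 0 TPM. By the authors' isoform percent, Klf3-201 made up 87.5% of the gene in replicate 1, 18.9% in replicate 2 and 82.1% in replicate 3, and Klf3-206 1.87%, 63.3% and 6.53%. In expected counts Klf3-206 had 6.97, 2946 and 37.6. Because TPM corrects for length, a count on this short transcript weighs more in TPM than a count on Klf3-201. Klf3-201 still held the most counts of the gene in replicate 2, 7456.

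The second quantification, in which reads were matched to an index of the same transcripts, also gave short transcripts most Klf3 TPM in replicate 2. Klf3-206 had 5.32, 97.6 and 4.98 TPM there, Klf3-202 had 0.93, 51.8 and 0 TPM, and Klf3-201 had 22.5, 34.01 and 24.9 TPM. In replicates 1 and 3 the share of Klf3-206 was larger than in the first quantification. It was 16.6% and 14.4% of Klf3 TPM, against 1.87% and 6.53%. On a scale without length correction, CPM (counts scaled to a fixed library size) after TMM scaling, which adjusts for composition, Klf3 had 121, 257 and 94.0, a ratio of 2.74 between the highest and lowest library. Klf3 was the single member, of 5 that could enter, whose leading transcript in 1 library differed from the one the others shared, and the 21% of genes given above is the level against which to read that. The summed neutrophil and megakaryocyte markers were also highest in replicate 2, and the sums of the remaining other cell types were not. The 6 neutrophil markers summed to 3.83, 16.9 and 5.42 TPM, with S100a8 and S100a9 at 1 TPM or more in every library and Ly6g at 0 counts in all. Camp was highest in replicate 1 with 0.70, 0.18 and 0.27 TPM, and Elane had at most 0.09 TPM. The 4 megakaryocyte markers summed to 0.34, 4.12 and 2.44 TPM, none of them at 1 TPM in every library and Gp1bb at 0 in all. In replicate 2 that sum was mostly Ppbp (0.07, 4.01 and 0.32 TPM), while Itga2b had 0.27, 0.07 and 2.12 TPM. The 5 T cell markers summed to 8.58, 11.5 and 15.6 TPM, mostly Cd28 and highest in replicate 3, and Cd3e had 0, 10 and 0 counts. The part of these, and of the mitochondrial share, in the level of Klf3 was not tested.

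**Figure D2:**
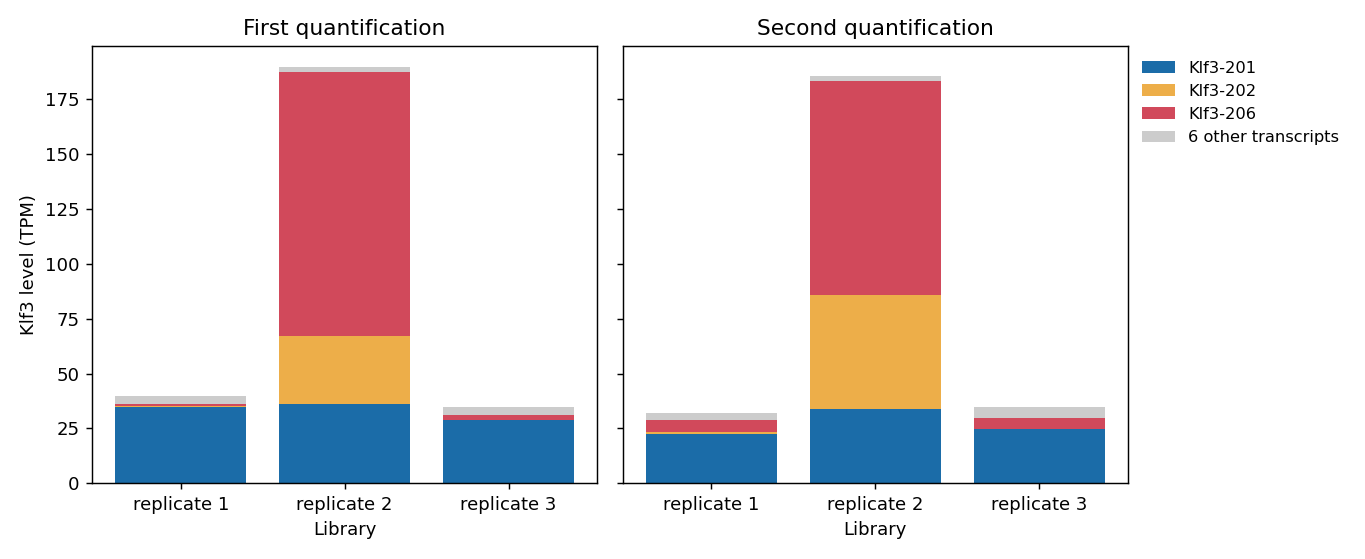
Level of Klf3 in TPM (height of each bar) in each library, split by annotated transcript, in the first quantification (left) and the second (right). Klf3-201 lies between 22.5 and 35.9 TPM throughout, and in replicate 2 Klf3-206 and Klf3-202 stand on top of it in both quantifications.

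Of the other CtBP-binding KLFs, Klf8 was the only KLF gene outside the members to reach 1 TPM in every library, with 3.86, 3.50 and 2.49 TPM, and Klf12 was at 0 counts in all 3. Klf1, Klf5, Klf14, Klf15 and Klf17 had at most 4 counts in any library. Of the SP genes, which bind similar GC-rich elements, Sp3 led at 32.2 ± 3.05 TPM, followed by Sp1 at 13.5 ± 0.888 TPM, Sp2 at 11.9 ± 4.60 TPM and Sp4 at 2.23 ± 0.401 TPM. Sp5 to Sp9 had at most 0.08 TPM in any library of the first quantification. In the second, Sp7 had 6.29, 12.4 and 1.76 TPM and Klf12 had 0.753, 0.527 and 1.13 TPM, both listed at 0 in the first.

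Among the SIN3-binding members, Klf13 (ENSMUSG00000052040.10, chromosome 7, 63886351 to 63938915, minus strand), known in T cells as a regulator of the chemokine Ccl5, had 18.7, 8.26 and 20.95 TPM. Klf16 (ENSMUSG00000035397.8, chromosome 10, 80567124 to 80577321, minus strand) had 4.38, 1.14 and 5.34 TPM. Both were highest in replicate 3 and lowest in replicate 2. Klf9 (ENSMUSG00000033863.2, chromosome 19, 23141226 to 23168134, plus strand), a glucocorticoid-responsive factor, had 0.56, 0.16 and 0.23 TPM from 40, 29 and 30 expected counts. Klf11 (ENSMUSG00000020653.12, chromosome 12, 24651274 to 24662789, plus strand), the nearest relative of Klf10, had 0.35, 0.25 and 0.22 TPM from 23, 40 and 26 counts. Klf9 was highest in replicate 1, and both stayed below 1 TPM in every library.

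Klf10 (ENSMUSG00000037465.10, chromosome 15, 38291463 to 38300706, minus strand), first described as a TGF-beta-inducible early gene, had 8.10, 18.0 and 12.9 TPM in the first quantification, a mean of 13.0 ± 4.96 TPM. The same libraries gave it 112770, 1632 and 1515 TPM in the second. Its place by mean among protein-coding genes went from 5585th to 2nd. No other member moved in this way, and replicate 1 carried the highest value of Klf10 in the second quantification and the lowest in the first.

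Almost all of that difference lay on Klf10-204, a 326-base transcript with 3 exons that is annotated as coding with its 3′ end not found. In the first quantification it had 0 expected counts in each library. That allows up to 3 counts, or 1.95, 0.640 and 1.32 TPM in replicates 1, 2 and 3, for counting error only. In the second it had 392212, 9415 and 4870 estimated counts, which was 1.22%, 0.0164% and 0.0103% of all counts there. Its effective length, the part of a transcript in which a fragment can start, was 110, 137 and 82.4 bases in the second quantification. In the first it was 90.3, 113 and 72.5 bases. At such lengths a count weighs more in TPM than on a long transcript. At 112763 TPM Klf10-204 was the most abundant transcript of replicate 1 in the second quantification and took 11.3% of all TPM. It ranked 60th in replicate 2 and 70th in replicate 3, with 1614 and 1502 TPM.

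The other 5 Klf10 transcripts were close in sum, with 350, 1066 and 1059 counts in the first quantification and 429, 1108 and 1122 in the second. Their division differed, since Klf10-202 in replicate 2 had 202 counts in the first and 101 in the second. Klf10-201, the full-length transcript of 3044 bases, led them with 343, 732 and 1051 expected counts in the first and 413, 870 and 1104 estimated counts in the second. With Klf10-204 set aside, Klf10 had 6.53, 17.5 and 12.3 TPM in the second quantification.

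Short Klf10 transcripts added to replicate 2 as they did for Klf3. Klf10-205 (536 bases) had 0, 54.6 and 1.48 expected counts and Klf10-206 (530 bases) 3.72, 75.3 and 4.11, together 4.13 and 5.81 TPM of the 18.0 TPM of replicate 2. In TMM-scaled CPM, Klf10 had 14.2, 22.4 and 21.9, so replicates 2 and 3 lay closer on that scale than by TPM.

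**Figure D3:**
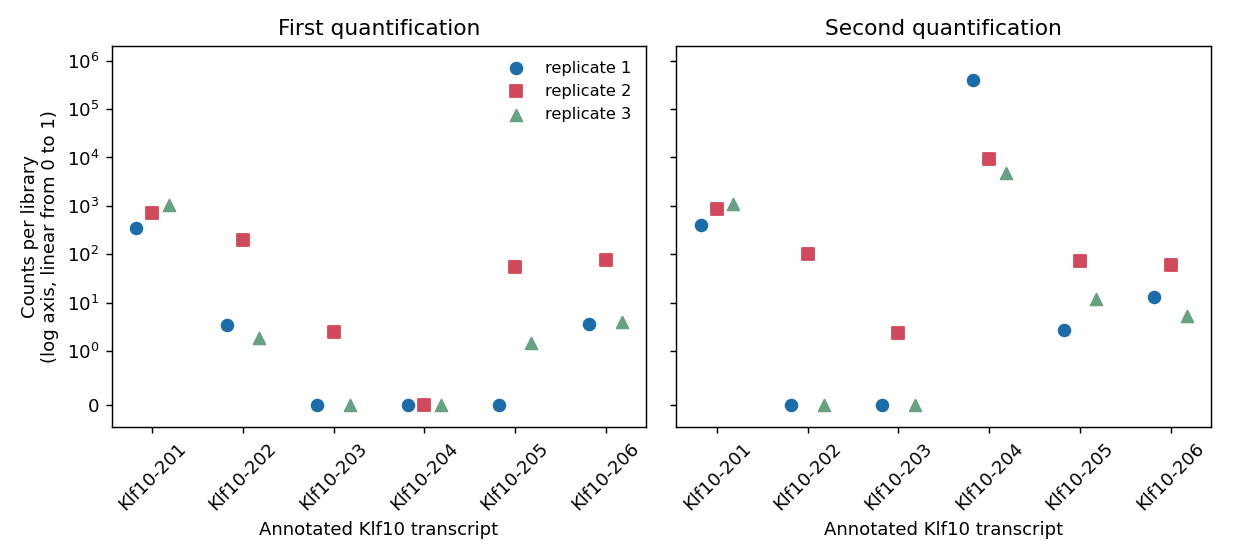
Counts of the 6 annotated Klf10 transcripts in each library (points, log axis that is linear between 0 and 1), in the first quantification (left) and the second (right). Klf10-204 is at 0 in all libraries on the left and at 4870 or more on the right, while Klf10-201 keeps its place.

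At the level of genes, the mean difference between quantifications in log2(TPM + 1), second minus first, was 8.93 ± 4.04 for Klf10, with 13.6, 6.42 and 6.77 in replicates 1, 2 and 3. It was the highest of 10203 protein-coding genes whose mean reached 1 TPM in either quantification. Of these genes 1.51% (154) differed by at least 1 log2 unit with the same sign in every library. Klf10 was the 1 such gene of the 8 members that passed this filter on level, and nothing is read from that share because Klf10 was selected for it. The other members had mean differences between -0.20 (Klf2) and 0.02 (Klf7).

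In replicate 1 the other 9 members were lower in the second quantification, by differences of -0.43 to -0.11, beside a median of -0.42 over all 10203 genes. In replicates 2 and 3 that median was 0.05 and -0.09. With all transcripts that hold at least 31 A in a row left out of the second quantification and its TPM rescaled, a choice made after the sequence was seen, the median in replicate 1 was -0.26.

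**Figure D4:**
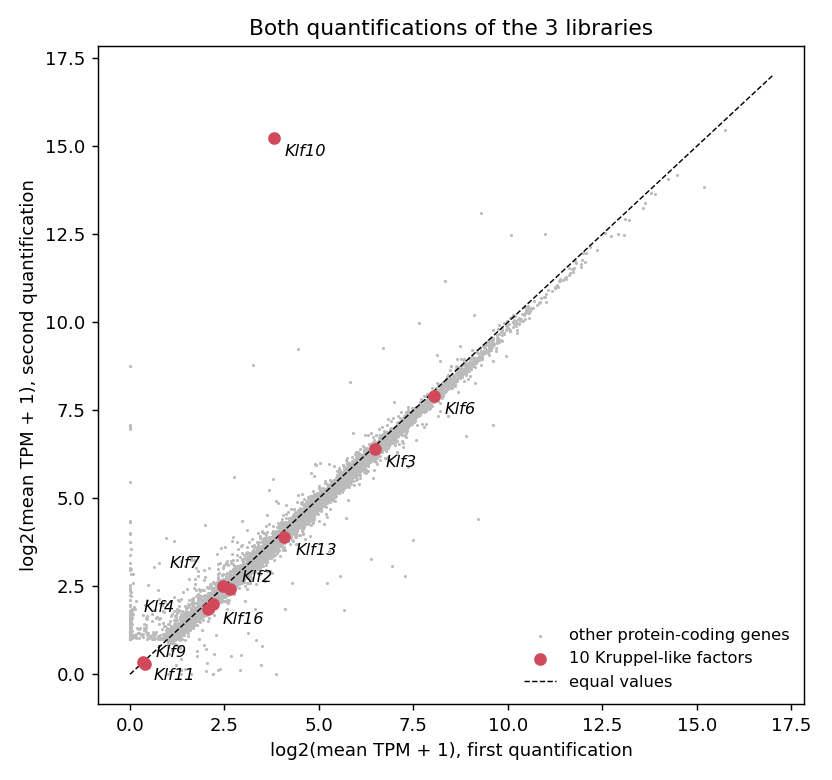
Mean level over the 3 libraries as log2(TPM + 1), first quantification on the horizontal axis and second on the vertical, for 10203 protein-coding genes (grey) and the 10 members (red, with Klf9 and Klf11 drawn although below 1 TPM). Klf10 lies far above the line of equal values and the other 9 members lie on it.

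The run of A was then looked up in all 141767 transcripts that both tables share. Klf10-204 is 1 of 121 transcripts, from 99 genes, with at least 31 A in a row. That cut was chosen after the run in Klf10-204 was seen. Of these 121, 15 (12.4%), Klf10-204 included, were at 0 counts in the first quantification and at 10 or more in the second in every library. The share was 3.95% of 836 transcripts with a longest run of 20 to 30 A, 1.23% of 9215 with 10 to 19, and 0.480% of 131595 with 9 or fewer, beside 0.559% of all. It was higher in each step of run length.

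Among all 793 such transcripts Klf10-204 had the most counts. Of the 15 with at least 31 A, 14 had their highest count in replicate 1, against 123 of the other 778. Klf10-204 is itself among the 15 and the 14. For example, the retained intron A430010J10Rik-203, with 31 A, had 2625, 1179 and 187 counts in the second quantification, and Gm43541-201, with 34 A, had 1317, 123 and 17.1. The second quantification held more counts in all, with 32127995, 57277114 and 47185726 against 24596382, 54016971 and 43127749 in the first. Without Klf10-204, transcripts with at least 31 A summed to 11028, 19957 and 14307 counts in the first quantification and 40878, 26770 and 16818 in the second. Whether reads made of A led to these counts was not tested, since the reads were not analysed here.

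**Figure D5:**
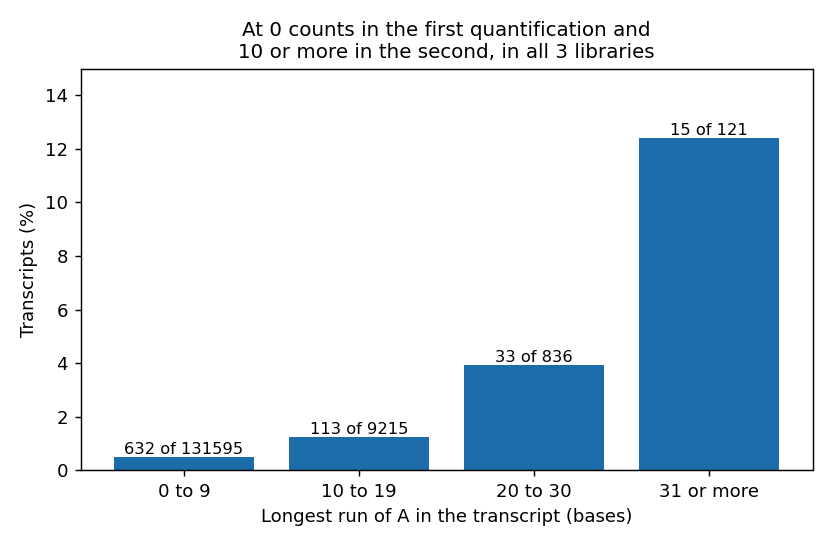
Share of transcripts (%) at 0 counts in the first quantification and at 10 or more in the second in all 3 libraries, by the longest run of A in the transcript. The share is 0.480% for runs of up to 9 A and 12.4% for 31 or more, the bin that holds Klf10-204.

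Transcript by transcript, the members had 36 annotated transcripts, and 2 members (Klf2 and Klf16) had 1 each. A mean of 1 TPM or more was reached by 14 transcripts in the first quantification and by 16 in the second, and all 14 were among the 16. The additional ones were Klf10-204 and Klf6-203, a nonsense-mediated decay transcript. The leading transcript, that with the highest mean TPM, was the same in both quantifications for 9 of 10 members, beside 89.3% of 9894 protein-coding genes. The exception was Klf10. Among the 14, the log2 difference of mean TPM + 1 ran from -0.28 to 1.30, and the highest was that of Klf6-202, a retained intron of Klf6 with 6.01, 0.53 and 3.39 TPM in the first quantification and 17.7, 1.10 and 10.003 in the second.

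Genes of other families nearest to Klf10 over its 6 values (3 libraries in both quantifications) were Rps12-ps3, mt-Co3, Rpl10-ps3, Lars2 and mt-Atp6, with Euclidean distances of 9.01 to 11.0 in log2(TPM + 1). The nearest, Rps12-ps3, went from 49.4, 0.77 and 11.7 TPM to 648, 246 and 906 TPM. None of the 5 shared the level of Klf10 in replicate 1, where the highest of them had 1947 TPM (Lars2).

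The order of the members could be read only in part. Of 9 neighbouring pairs in the order of mean TPM, 4 had the same order in all 3 libraries. A single pair, Klf4 above Klf9, was separated by more than 3 SD of its log2 ratio, with a ratio of 2.60 ± 0.746 on log2(TPM + 0.1). It was not separated at a pseudocount of 1, where the ratio was 1.40 ± 0.853. Without replicate 2, Klf6 above Klf3 (2.50 ± 0.373, n = 2), Klf3 above Klf13 (0.91 ± 0.243) and Klf7 above Klf9 (3.13 ± 0.506) were separated, on the same log2 scale. Over all 3 libraries the other 8 pairs were within 3 SD. Among them Klf6 above Klf3 (1.97 ± 0.968), Klf3 above Klf13 (2.11 ± 2.08) and Klf10 above Klf2 (1.34 ± 1.37) kept their order in every library, and 5 pairs did not.

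By edgeR's quasi-likelihood fit, 0 of 10 members were called for a variance between libraries above the trend for genes of their level. That test called 0 of 11932 genes, 0% of those tested, at an adjusted p under 0.05, and 503 genes and 1 member (Klf4) had an unadjusted p under that value. Klf4 had 9.54 times the variance of the trend (unadjusted p = 0.0240, adjusted p = 0.933, edgeR), with 13.4, 2.24 and 2.96 TMM-scaled CPM. Klf3 had 4.44 times the variance of the trend, with an adjusted p of 0.933 by the same edgeR fit. DESeq2 marked 17 of the 11932 genes as dispersion outliers and none of the members.

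Against counting error alone, 9 of the 10 members differed between libraries by a chi-square test of homogeneity with Benjamini-Hochberg adjustment. So did 87.9% of all 11932 genes, so the count is near the background. Klf11 was the exception (adjusted p = 0.114). All 10 members had passed the filter on low counts. The highest library was the same for 9 of 10 members under 4 scalings (TPM, TPM without mitochondrially encoded genes, TMM-scaled counts and the second quantification without runs of A), and so was the lowest for 9 of 10. Klf11 and Klf7 were the respective exceptions.

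The partners of the KLFs were read from lists of cofactors, regulators and targets. Of 59 such genes, 54 reached 1 TPM in every library, and the same edgeR fit called none of them for excess spread. All 12 SIN3 complex genes were present, with a median of 38.0 TPM in the first quantification, from which the levels of partners are given. Of these genes, Sap18 had 55.3, 32.2 and 50.2 TPM there and 2.90, 10.4 and 4.49 TPM in the second quantification. The scaffold Sin3b (101 ± 38.2 TPM), the deacetylase Hdac1 (65.6 ± 5.87 TPM), Sap30 and Rbbp7 led, and Ing2 (8.15 ± 2.01 TPM) was lowest. The scaffold Sin3a had 13.5, 56.4 and 14.5 TPM, highest in replicate 2 by TPM as Klf3 was. Hdac2, Suds3, Ing1 and Brms1l were also highest there by TPM. Sin3b (117, 57.7 and 129 TPM), Hdac1, Sap30, Sap18, Rbbp4 and Rbbp7 were lowest in replicate 2, and Ing2 was lowest in replicate 1. The 12 genes summed to 508, 443 and 536 TPM. All 7 genes around CtBP were present too, with a median of 19.9 TPM. The zinc finger repressor Zeb2 (180 ± 88.4 TPM), the methyltransferase Ehmt2 (66.7 ± 25.0 TPM) and Ctbp1 itself (60.7 ± 22.5 TPM) led them, Ctbp2 had 19.5 ± 5.09 TPM, and Ehmt1 (9.92 ± 3.71 TPM) was lowest. Both corepressors that the members bind were thus read at higher levels than most members.

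The 5 acetyltransferases were all present, from Crebbp at 8.16 ± 2.13 TPM to Kat2b at 33.9 ± 6.11 TPM, with Ep300 at 30.97 ± 1.67 TPM. The MEK5-ERK5-MEF2 cascade, the known inducer of Klf2 and Klf4, had all 7 genes present. They ran from the kinase Map3k2 (4.57 ± 1.18 TPM) and MEK5 (Map2k5, 12.4 ± 2.68 TPM) over ERK5 (Mapk7, 18.3 ± 5.64 TPM) to the transcription factor Mef2d (42.1 ± 32.8 TPM). Mef2d had 19.9, 79.7 and 26.7 TPM, so its mean rests on replicate 2, and Mef2a and Mef2c were also highest there. Mapk7 (18.6, 12.5 and 23.7 TPM), Map2k5 and Map3k2 were lowest in replicate 2 by TPM, as Klf2 and Klf4 were. Map3k3 was lowest in replicate 1.

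Of 9 genes of TGF-beta input, from which KLF10 and KLF11 take their first names, 8 reached 1 TPM in every library. The ligand Tgfb1 (163 ± 6.75 TPM) and the corepressor Tgif1 (73.7 ± 8.26 TPM) led, Smad2 had 30.2, 101 and 30.7 TPM, and the receptors Tgfbr2 and Tgfbr1 had 38.6 ± 13.3 and 13.8 ± 3.35 TPM. Smad3, with 2.86, 12.2 and 5.33 TPM and thus highest in replicate 2, and the inhibitory Smad7 (0.373 ± 0.214 TPM) were lowest by mean. Of 8 ubiquitin ligases linked to KLF turnover, 7 reached 1 TPM in every library, led by Stub1 (46.0 ± 6.46 TPM) and Wwp1, a ligase of KLF2 (26.6 ± 12.5 TPM), and Fbxw7 had 7.66 ± 1.66 TPM. Siah1a (6.77 ± 2.33 TPM) and Siah1b (1.66 ± 0.730 TPM) are near-identical copies whose counts the quantification may have split.

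Of 11 targets or readouts of KLF2 and KLF4, 8 reached 1 TPM in every library, with a median of 7.28 TPM. Mcl1 (339 ± 46.9 TPM), which protects from apoptosis, the cell cycle inhibitor Cdkn1a (258 ± 26.6 TPM) and Txnip (101 ± 20.0 TPM) were highest. The endothelial readouts were lowest, with Nos3 at most at 0.02 TPM in any library, Tfpi2 at 0.123 ± 0.0737 TPM and Thbd at 1.16 ± 0.583 TPM. No untreated library was analysed here, so none of these levels is a response.

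Of the genes that overlap members on the genome, the opposite-strand lincRNA Gm26649 at Klf7 had the most counts, 49.9, 28.3 and 98.9 beside 502, 1694 and 781 for Klf7. Strand use in counting is not given in the sources used here, so reads of such partners cannot be told apart from those of the member where exons overlap.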

How the data were processed

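Each of the 3 libraries came with 2 quantifications of mm10 transcripts in GENCODE M21, as the deposited notes say. The first, for genes and transcripts, used transcriptome alignments and is laid out like RSEM output. The second, for transcripts, used an index and is laid out like kallisto output. Which tools, versions and strandedness applied is not given in the sources used here. Per the file headers, the deposited tables hold expected or estimated counts, which share a read among transcripts by a model and need not be whole, TPM, and for first transcripts the percent of the gene (isoform percent).

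Members were matched by symbol through the transcript names, and the second quantification was summed to genes. Members and lists were chosen with earlier results of these data known. Entries that name no annotated gene took 0.0875%, 0.0464% and 0.0636% of counts and were left out. Expected counts were rounded and scaled by TMM, with factors of 1.01, 0.886 and 1.12 (edgeR 4.0.16, R 4.3.3), for 11932 genes kept by filterByExpr. Excess spread was a one-sided F test of each gene's quasi-likelihood variance against the trend, adjusted by Benjamini-Hochberg over all 11932 genes. Counting error was tested by chi-square. Both tests were first run on simulated data with less spread between libraries than the trend fitted here. How often the F test would find excess spread at the real level was therefore not shown. DESeq2 1.42.0 gave alternative size factors and dispersion outliers. Differences between quantifications used log2(TPM + 1) and ratios between members log2(TPM + 0.1). Floors of 3 counts cover counting error only. All 10 members are named, of each further list up to 4 highest and 3 lowest genes by mean TPM, and any others were chosen after their values were seen. For Klf10 the 5 nearest genes were named. Alternatives were other scalings, filters and pseudocounts, the second quantification, leaving out each library and, added after the data were seen, leaving out transcripts with at least 31 A in a row and subtracting the median difference.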

Additional observations from a re-analysis of the deposited data

How the results depend on the processing

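The counts over members for excess spread (0 of 10 by edgeR, and 0 of 10 as DESeq2 dispersion outliers), counting error and leading transcripts, and the count of 12 of 26 KLF and SP genes at 1 TPM (10 to 13), stayed within 1.5 times of the reported count under every alternative run. So did the count of 7 of 10 members at 1 TPM (6 to 8), whose alternatives were chosen after seeing the data. For excess spread the number of called genes over the whole table did change, from 0 to 64 of 20372 without a filter on low counts and to 20, 7 and 11 without replicates 1, 2 and 3. Neighbouring pairs separated went from 1 to 0 at a pseudocount of 1 and to 0 in the second quantification, and ranged from 1 to 3 with 1 library left out. That Klf10 differed between quantifications held under every other alternative (1 member), and ended (0 members) when transcripts with at least 31 A in a row were left out of the second quantification, an alternative chosen after seeing the data that removes Klf10-204 by construction. The mean of Klf10 was 38639 TPM in the second quantification with that transcript and 12.4 TPM without such transcripts. No paired analysis was possible because the 3 libraries form 1 group. Depth limits Klf9 and Klf11, which had 40 or fewer counts in each library.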
